A study of Mus musculus with 2 samples.

Results

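Serum amyloid A and orosomucoid are plasma proteins that the liver secretes, and the mRNA levels of their mouse genes were compared in liver RNA of S1a/Ctrl mice and of S1a/ETP mice. The members were the rows of the deposited table whose gene symbol equals Saa1, Saa2, Saa3, Saa4, Orm1, Orm2 or Orm3, which gave 7 of 35275 genes, 4 of serum amyloid A and 3 of orosomucoid. Saa1, Saa2 and Orm2 were 3.89 to 4.64 times as abundant in the S1a/ETP library as in S1a/Ctrl, Orm1 was 1.60-fold higher, Saa3 and Orm3 could not be told apart between the libraries, and Saa4 was 1.38-fold lower. The summed FPKM of the 7 genes went from 1883 to 4335.

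The mice were FVB males of littermate cohorts, and liver was taken at 12 months of age. Every mouse was Alb-Cre+/-, for a recombinase active in hepatocytes, Rosa rtTA+/-, for a doxycycline-dependent activator that Cre switches on, and S1a+/-, for a transgene that makes the amino-terminal part of human SREBP1a under the rat PEPCK promoter and gives a fatty liver. The S1a/ETP mice (hSREBP/Endotrophin transgenic in the labels) were also TRE-ETP+/-. From this transgene their hepatocytes made endotrophin, a fragment cut from the carboxy terminus of collagen VI alpha 3, once given doxycycline. The S1a/Ctrl mice (hSREBP transgenic in the labels) did not carry TRE-ETP. Both groups received a diet with 200 mg/kg doxycycline for 10 months. After that time the paper reports liver nodules in most S1a/ETP mice, and no visible tumors in S1a/Ctrl mice. It also reports more fibrosis and inflammation in S1a/ETP livers. Whether nodule tissue was in the RNA is not stated in the sources used here, and its part in the levels was not tested. Each group is 1 library made from the pooled RNA of 3 mice. With 2 libraries in all there were no replicates and no test could be run, and differences among the mice of a pool are not visible.

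In mice and humans, SAA1 and SAA2 are the major acute phase proteins of this family. Hepatocytes make them in response to interleukin-6, interleukin-1 and tumor necrosis factor, through the transcription factors C/EBP, NF-kB and STAT3, and in plasma they ride on high-density lipoprotein (HDL), where they can displace apolipoprotein A-I. Mouse Saa3 is inducible too but is made largely outside hepatocytes, by macrophages, adipocytes and epithelia, and Saa4 is the constitutive member, which is carried on HDL without an acute phase. Orosomucoid, or alpha-1-acid glycoprotein, is a lipocalin that binds lipids and drugs in plasma. Its genes answer to glucocorticoids as well as cytokines, and Orm1 is the main copy in mouse liver.

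Values are FPKM, fragments scaled to gene length and library depth, so they can be set side by side between genes. A log2 ratio is S1a/ETP over S1a/Ctrl after 0.1 FPKM was added to each value. Brackets hold the 95% interval of the ratio from the reads behind it, which covers counting error only and not the spread between mice. Genes with many reads have narrow intervals, so even small ratios can place their intervals above or below 0. Depths and reads were inferred from the FPKM values and gene lengths. By this the S1a/Ctrl library held 19245078 reads and the S1a/ETP library 14538808, and 18109 and 17565 genes were above 0. Both had the profile of liver, with Alb at 31534 and 31035 FPKM. Of 10 hepatocyte markers 8 had an interval below 0 and 2 above, 1 was at least 2-fold lower (Cyp2e1, −1.04), and the median log2 ratio was −0.21. Of all genes whose mean reached 0.1 FPKM, 17.5% had an interval below 0 and 22.4% above, and 6.25% were at least 2-fold lower. The libraries also differed in other cells. The summed level of 12 neutrophil markers was 6.18 and 371 FPKM, that of 6 monocyte markers 3.15 and 15.6 FPKM (3.15 and 8.31 FPKM without Chil3, which neutrophils also express, a sum added after the data were seen), and that of 12 macrophage markers 254 and 335 FPKM. Of the neutrophil markers 6, among them Ngp, Mpo and Elane, had no read in S1a/Ctrl. The summed level of 10 skeletal muscle markers was 81.5 FPKM in S1a/Ctrl and 0.462 FPKM in S1a/ETP. The part of these cells in the levels of the members was not tested. In such bulk samples fewer cells of a type and less RNA per cell cannot be told apart.

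Saa1 (ENSMUSG00000074115), the first of the major acute phase copies, lay at chr7:46740501-46742980 on the minus strand of GRCm38. In S1a/Ctrl 3208 reads gave it 276 FPKM, and in S1a/ETP 9417 reads gave it 1071 FPKM. That is a 3.89-fold difference, a log2 ratio of 1.96 [1.90, 2.02]. Saa2 (ENSMUSG00000057465), its near copy at chr7:46751833-46754314 on the plus strand, was at 202 FPKM (2366 reads) and 863 FPKM (7651 reads), a 4.28-fold difference with a log2 ratio of 2.10 [2.03, 2.16]. The counting intervals of the levels stood far apart for both genes, 266 to 285 against 1049 to 1092 FPKM for Saa1 and 194 to 210 against 843 to 882 FPKM for Saa2. Among all 35275 genes, Saa1 moved from the 278th to the 52nd place by level and Saa2 from the 386th to the 67th.

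Saa3 (ENSMUSG00000040026, chr7:46711998-46715676, minus strand), the inducible copy of macrophages and epithelia, was a minor transcript in both livers. It was at 14.2 FPKM (145 reads, interval 12.0 to 16.7) in S1a/Ctrl and 17.1 FPKM (132 reads, interval 14.3 to 20.3) in S1a/ETP. The log2 ratio was 0.27 [−0.08, 0.62], so the intervals of the 2 levels overlapped and a difference was not detectable at this depth. Between the same libraries the summed level of the macrophage markers was 254 and 335 FPKM. Of those 12 markers 11 had an interval above 0, beside 22.4% of all genes whose mean reached 0.1 FPKM. Of the 7 adipocyte markers 2 were tested, Cidec at 108 and 119 FPKM (0.14 [0.07, 0.21]) and Fabp4 at 23.5 and 31.6 FPKM (0.43 [0.19, 0.67]), and the summed level of the list was 132 and 151 FPKM. Nearly all of that sum was Cidec and Fabp4. Of the other adipocyte markers, Lep was listed at 0 in both libraries. Adipoq went from 0.161 to 0 FPKM, Plin1 from 0.136 to 0, Cfd from 0.169 to 0 and Retn from 0.0912 to 0. In S1a/Ctrl these levels rested on only 4, 5, 3 and 2 reads, and the intervals of their ratios held 0. The 7 epithelial markers were mixed, with 3 intervals above 0 and 1 below (Epcam, −0.65 [−1.12, −0.18]). Among those above 0, Vil1 (0.0166 and 0.440 FPKM) reached the mean of 0.1 FPKM only through S1a/ETP. The summed level of the 7 epithelial markers was 133 and 193 FPKM, most of it Spp1 at 127 and 188 FPKM. The part of these cells in the level of Saa3 was not tested.

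Saa4 (ENSMUSG00000040017, chr7:46728017-46732543, minus strand), the constitutive copy, went the other way. Its level was 130 FPKM (5031 reads) in S1a/Ctrl. In S1a/ETP it was 94.1 FPKM (2757 reads), which is a difference of −35.6 FPKM and a log2 ratio of −0.46 [−0.53, −0.40]. The level intervals, 126 to 133 and 90.6 to 97.7 FPKM, did not overlap. In S1a/Ctrl, Saa1 was 2.12 times and Saa2 1.55 times as abundant as Saa4, and in S1a/ETP they were 11.4 and 9.17 times as abundant.

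Orm1 (ENSMUSG00000039196, chr4:63344560-63348163, plus strand) was the most abundant member in both libraries. It was at 1153 FPKM (17193 reads) in S1a/Ctrl and 1846 FPKM (20800 reads) in S1a/ETP. Its log2 ratio was 0.68 [0.65, 0.71], and it moved from the 51st to the 31st place by level among all genes. Orm2 (ENSMUSG00000061540, chr4:63362449-63365878, plus strand) had the highest ratio of the 7 members. It was at 92.5 FPKM (1379 reads) and 429 FPKM (4838 reads), a 4.64-fold difference with a log2 ratio of 2.21 [2.13, 2.30], and moved from the 749th to the 145th place. Orm3 (ENSMUSG00000028359, chr4:63356162-63359511, plus strand), the minor copy, was at 17.3 FPKM (257 reads, interval 15.2 to 19.5) and 15.5 FPKM (174 reads, interval 13.3 to 18.0). Its log2 ratio of −0.16 [−0.44, 0.12] was not distinguishable from 0 at this depth. In absolute terms Orm1 gained 693 FPKM and Orm2 337 FPKM, so the copy with the smaller ratio added more transcript.

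At the size the study used, 2-fold, 3 of the 7 members were higher in S1a/ETP (Saa1, Saa2 and Orm2) and 0 were lower. The tested background was the 16042 genes whose mean reached 0.1 FPKM, of which 6.42% were higher and 6.25% lower by this size. The study itself names Saa1, Saa2 and Orm2 among its raised genes on these same libraries, so their direction here is not independent of it. Counted by interval, 4 members (Orm1 in addition) were above 0, 1 was below 0 (Saa4) and the intervals of 2 held 0, beside 22.4% of all tested genes above 0 and 17.5% below. The median log2 ratio of the 7 members was 0.68, and that of all tested genes was 0.03.

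Of the 689 genes whose mean reached 100 FPKM, 11 or 1.6% were higher and 17 or 2.47% were lower by 2-fold or more, and the median log2 ratio was −0.08. By log2 ratio Orm2, Saa2 and Saa1 were the 3rd, 4th and 5th of these 689 genes. Lcn2 (lipocalin-2, 63.8 and 496 FPKM, log2 ratio 2.96) and Fgl1 (the hepatocyte protein fibrinogen-like 1, 40.4 and 193 FPKM, log2 ratio 2.25) were above them, and Lrg1 (leucine-rich alpha-2-glycoprotein, 161 and 488 FPKM, log2 ratio 1.60) followed. Lcn2 is a gene of neutrophils as well as of hepatocytes, and the part of the neutrophils, whose summed markers were 6.18 and 371 FPKM, in its level was not tested. Orm1 was 20th and Saa4 634th. The next in order after Lrg1 were Tubb2a at 1.41, Ly6d at 1.15, Dak at 1.05, Slpi at 1.02 and S100a11 at 1.01.

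The make-up of each family differed between the libraries. The summed serum amyloid A level was 621 FPKM in S1a/Ctrl and 2045 FPKM in S1a/ETP, a 3.29-fold difference with a log2 ratio of 1.72 [1.68, 1.76]. Saa1 and Saa2 together went from 477 to 1933 FPKM, a log2 ratio of 2.02 [1.97, 2.06], and with Saa3 the inducible copies went from 491 to 1950 FPKM, 1.99 [1.95, 2.03]. Saa4 made up 20.9% of the family level in S1a/Ctrl and 4.60% in S1a/ETP, and the share of Saa3 was 2.28% and 0.836%. Saa1 held 44.4% and 52.4%, and Saa2 32.5% and 42.2%. Counted in reads, which weight the longer Saa4 transcript of 2015 bp more than the 605 bp of Saa1, Saa4 made up 46.8% and 13.8%.

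The orosomucoid sum was 1262 FPKM in S1a/Ctrl and 2291 FPKM in S1a/ETP, a 1.81-fold difference with a log2 ratio of 0.86 [0.83, 0.89]. Orm1 made up 91.3% of it in S1a/Ctrl and 80.6% in S1a/ETP, while the share of Orm2 was 7.32% and 18.7% and that of Orm3 was 1.37% and 0.676%. Orm1 accounted for 67.4% of the gain in FPKM and Orm2 for 32.8%. Serum amyloid A took 0.0559% of all reads of the S1a/Ctrl library and 0.137% of the S1a/ETP library, and orosomucoid took 0.0978% and 0.178%.

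The change in the ratio of one copy to another does not depend on how the libraries are scaled. Orm1 was 12.5 times as abundant as Orm2 in S1a/Ctrl and 4.30 times in S1a/ETP, so Orm2 gained 2.90-fold on Orm1 (95% exact interval of the reads 2.72 to 3.09). Orm2 gained 5.18-fold on Orm3 (4.22 to 6.38) and Orm1 gained 1.79-fold on Orm3 (1.47 to 2.18). In the other family, Saa1 gained 5.36-fold on Saa4 (5.04 to 5.70), Saa2 gained 5.90-fold on Saa4 (5.52 to 6.30) and Saa3 gained 1.66-fold on Saa4 (1.3 to 2.13). Saa1 and Saa2 stayed near each other, with a Saa1 to Saa2 ratio that went from 1.37 to 1.24, a factor of 0.908 (0.854 to 0.965). Across the families Orm2 gained 1.20-fold on Saa1 (1.11 to 1.29).

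How well such copies can be told apart depends on their sequence, so the most divergent coding stretches of the closest copies are shown. Over the coding sequence of the GENCODE vM21 transcripts, Saa1 and Saa2 were 95.1% identical and differed in 18 of 369 columns. The 60-base windows with the most differences held 7 of these 18, coding bases 90 to 149 of both genes, which run over an exon junction at chr7:46741337-46742433 in Saa1 and chr7:46752380-46753475 in Saa2. Bases that differ between the copies are in capitals.
Saa1: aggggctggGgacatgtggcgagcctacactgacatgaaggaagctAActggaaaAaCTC
Saa2: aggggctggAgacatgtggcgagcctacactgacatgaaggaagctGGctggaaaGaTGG

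The orosomucoid copies were more distant, with 89.9% identity between Orm1 and Orm2, 86.1% between Orm1 and Orm3 and 88.0% between Orm2 and Orm3. Coding bases 138 to 197 of Orm1 (chr4:63345089-63345148) and Orm2 (chr4:63362964-63363023), which lie within 1 exon, differed at 17 of 60 positions, again in capitals.
Orm1: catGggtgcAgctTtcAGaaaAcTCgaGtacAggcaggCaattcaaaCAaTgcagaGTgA
Orm2: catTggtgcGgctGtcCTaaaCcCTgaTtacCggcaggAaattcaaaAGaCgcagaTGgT

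Orm2 and Orm3 differed most, at 18 of 60 positions, in coding bases 336 to 395 of Orm2 (chr4:63363922-63363981) and 333 to 392 of Orm3 (chr4:63357548-63357607).
Orm2: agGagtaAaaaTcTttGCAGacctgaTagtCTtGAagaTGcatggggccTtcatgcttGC
Orm3: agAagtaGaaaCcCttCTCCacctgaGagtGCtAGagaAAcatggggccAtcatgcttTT

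Of all windows of 50 bases along the transcripts, 14.8% in Saa1, 13.3% in Saa2, 20.4% in Orm1 and 22.7% in Orm2 were also found, letter for letter, in another gene. The share was 1.78% for Saa3, 1.37% for Saa4 and 3.59% for Orm3. The shared windows of Saa4 were found in 520 genes outside the 2 families and in none of the other members. At 100 bases the share was 6.95% for Orm1 and Orm2, which share a stretch, and 0 for the other 5. The sources used here do not give the read length, the strand setting or how reads that match 2 copies were counted, and the mice are FVB while the reference is C57BL/6J, so the split between Saa1 and Saa2 and between Orm1 and Orm2 is uncertain. The sum of Saa1 and Saa2 and the sum of Orm1 and Orm2 (1245 and 2275 FPKM, log2 ratio 0.87 [0.84, 0.90]) do not depend on the split. Annotations also exchange the names of the first pair, as RefSeq lists Saa2 as a synonym of Saa1 and Saa1 as a synonym of Saa2.

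Promoters from RefSeq (GRCm38.p6) were matched for 6 of the 7 members, and Orm1 was not among the matches. The 250 bases before the start of transcription were 94.8% identical between Saa1 and Saa2 (238 of 251 aligned columns) and 85.5% between Orm2 and Orm3 (218 of 255), while the other pairs compared had 42.3% to 49.2%. Saa1 and Saa2, whose levels moved together, are shown in full, in capitals where the C/EBP motif TTGCNNAA is matched on either strand.
Saa1, chr7:46742981-46743230, minus strand: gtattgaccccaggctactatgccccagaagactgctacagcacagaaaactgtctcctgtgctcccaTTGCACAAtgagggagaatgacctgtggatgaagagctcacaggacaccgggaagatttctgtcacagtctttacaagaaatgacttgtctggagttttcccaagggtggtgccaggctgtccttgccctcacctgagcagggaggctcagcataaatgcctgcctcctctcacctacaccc
Saa2, chr7:46751583-46751832, plus strand: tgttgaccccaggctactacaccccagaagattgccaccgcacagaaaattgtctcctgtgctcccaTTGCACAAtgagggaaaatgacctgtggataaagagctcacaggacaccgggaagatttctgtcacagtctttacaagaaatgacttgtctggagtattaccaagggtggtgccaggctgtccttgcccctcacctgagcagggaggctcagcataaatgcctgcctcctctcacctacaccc

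The last 150 bases before the start are shown for Orm2 and Orm3, a similar pair of promoters whose genes differed in ratio (2.21 and −0.16).
Orm2, chr4:63362299-63362448, plus strand: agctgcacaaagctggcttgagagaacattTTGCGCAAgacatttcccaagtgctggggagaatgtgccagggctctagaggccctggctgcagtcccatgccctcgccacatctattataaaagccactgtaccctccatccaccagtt
Orm3, chr4:63356008-63356157, plus strand: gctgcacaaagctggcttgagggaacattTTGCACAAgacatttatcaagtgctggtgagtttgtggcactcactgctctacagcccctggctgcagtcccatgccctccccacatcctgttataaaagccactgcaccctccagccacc

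The same stretch is shown for Saa3 and Saa4, whose promoters are unlike those of the other copies.
Saa3, chr7:46715677-46715826, minus strand: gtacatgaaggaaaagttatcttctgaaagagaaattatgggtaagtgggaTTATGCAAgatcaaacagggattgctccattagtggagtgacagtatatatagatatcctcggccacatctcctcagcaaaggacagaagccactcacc
Saa4, chr7:46732604-46732753, minus strand: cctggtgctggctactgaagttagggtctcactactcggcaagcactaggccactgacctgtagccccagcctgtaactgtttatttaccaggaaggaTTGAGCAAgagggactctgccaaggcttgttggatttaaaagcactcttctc

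The C/EBP motif was found in all 6 promoters, those of the higher genes Saa1, Saa2 and Orm2 and those of Saa3, Saa4 and Orm3 alike, and in 9.57% of 32526 promoters of the same length. Counted from the start of transcription, it lay at −182 to −175 in Saa1, −183 to −176 in Saa2, −99 to −92 in Saa3, −120 to −113 in Orm2 and −121 to −114 in Orm3. Saa4 held it at −52 to −45 and, outside the stretch shown, at −245 to −238. The match in Orm2 reads the same on both strands, and those at −99 in Saa3 and −52 in Saa4 are on the reverse strand. The sequence TATAAA was present in Orm2 and Orm3 (12.3% of all promoters), and AGAACA, part of the glucocorticoid response element, in Orm2 at −128 to −123 (16.0% of all promoters), where it does not overlap the C/EBP match. The STAT motif TTCNNNGAA (7.04% of all promoters) and the NF-kB motif (3.92%) had no match in these windows, which says nothing of the factors themselves. A match to the letters is a description and not evidence of binding.

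The genes of each family sit side by side. The 4 serum amyloid A genes span 42.3 kb on chromosome 7 in the order Saa3, Saa4, Saa1, Saa2, so Saa4, which was lower, lies next to Saa1, which was higher. The 3 orosomucoid genes span 21.3 kb on chromosome 4 in the order Orm1, Orm3, Orm2, with the pseudogene Gm11212 (1 read in each library) between Orm1 and Orm3. No member overlaps another gene of the table. Within 100 kb of the serum amyloid A genes, 6 of 7 neighbors were tested and 0 were past 2-fold. Of all tested genes 6.42% were higher and 6.25% lower by this size. These neighbors ranged from −0.34 [−0.74, 0.06] for Saal1 to 0.31 [0.28, 0.35] for Ldha, the lactate dehydrogenase A chain, at 466 and 579 FPKM. Hps5, a subunit of a complex that forms lysosome-related organelles and the nearest gene to Saa2 at 6.15 kb, was at −0.13 [−0.35, 0.09], and Gtf2h1, Gm9392 and Sergef were between 0.15 and 0.17. Gm9392 had only 7 and 6 reads and an interval of −1.40 to 1.69.

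Of the 5 neighbors of the orosomucoid genes 3 were tested, and 0 of them were past 2-fold, beside 6.42% higher and 6.25% lower of all tested genes. Col27a1, a fibrillar collagen gene 9.57 kb from Orm1, was lower in S1a/ETP, at 9.35 and 4.95 FPKM with a log2 ratio of −0.90 [−1.05, −0.76]. Akna, 1.25 kb from Orm2, was at 0.42 [−0.11, 0.94] with 42 and 45 reads, and Whrn was at 0.75 [0.02, 1.44] with 15 and 23 reads.

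Other acute phase genes were set beside the members. Of 26 listed genes that the liver is known to raise in the acute phase, 25 were tested. Of these 3 were at least 2-fold higher (Lcn2, Fgl1 and Lrg1) and 0 lower, beside 6.42% and 6.25% of all tested genes. By interval 20 were above 0 and 3 below, beside 22.4% and 17.5% of all tested genes, and their median log2 ratio was 0.40. The most abundant, the hemoglobin-binding haptoglobin gene Hp and the heme-binding hemopexin gene Hpx, had log2 ratios of 0.31 (2596 and 3225 FPKM) and 0.40 (3343 and 4424 FPKM). Apcs, which encodes serum amyloid P, the chief pentraxin of the mouse acute phase and not a member of the family despite its name, was at 214 and 375 FPKM with a log2 ratio of 0.81 [0.75, 0.87]. Hamp, the iron hormone hepcidin, was the lowest of the list at −0.63 [−0.67, −0.58]. Ranked together, the 32 genes began with Lcn2, Fgl1, Orm2, Saa2, Saa1 and Lrg1. Orm1 was 10th, close to Itih4 at 0.70 and Cd14 at 0.66, and Saa3 was 20th, Orm3 28th and Saa4 31st.

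The genes that the acute phase is known to lower were also measured. Of 12 such genes 9 had an interval below 0 and 2 above, beside 17.5% and 22.4% of all tested genes. In this list 0 were past 2-fold, and the median log2 ratio was −0.31. They included Pon1, the HDL enzyme paraoxonase 1, at −0.75, Serpina6, the corticosteroid carrier, at −0.58 and Apoa1, the main HDL protein, at −0.47, while Alb was at −0.02. Apoa4 was the exception with the largest size, at 0.73.

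Since serum amyloid A shares HDL with apolipoproteins, its level was also set beside that of Apoa1. Apoa1 was at 11549 FPKM in S1a/Ctrl and 8345 FPKM in S1a/ETP. Saa1 and Saa2 together came to 4.13% of the Apoa1 level in S1a/Ctrl. In S1a/ETP they came to 23.2% of it, a 5.61-fold gain (5.44 to 5.79). Saa4 came to 1.12% and 1.13% of it, a gain of 1.0-fold (0.958 to 1.05). Among 13 HDL proteins and enzymes 8 had an interval below 0 and 3 above, beside 17.5% and 22.4% of all tested genes. In this list 0 were past 2-fold and the median log2 ratio was −0.21. Apoc1 was at −0.63 and Apoa2 at −0.50, both HDL apolipoproteins, and Pltp, the phospholipid transfer protein, at 0.46. Of 6 tested lipocalins outside the major urinary proteins, the fold to which orosomucoid belongs, Lcn2 was at least 2-fold higher. Ptgds (prostaglandin D synthase, 0.940 and 0.311 FPKM) was at least 2-fold lower. It had only 24 and 6 reads, and its interval of −2.43 to −0.23 reached inside 2-fold. The median of the 6 was −0.20. Of all tested genes 6.42% were higher and 6.25% lower by 2-fold or more.

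The ligands that act on the 2 families were near the limit of detection. The 10 listed cytokines had 53 reads in all in S1a/Ctrl and 71 in S1a/ETP, and 4 of them were tested. Il6, Il17a and Il22 had no read in either library. Il1b was at 0.94 [−0.22, 2.05], and Il1a and Tnf were at 0.16 and 0.13. Lif, a cytokine of the interleukin-6 family, was at 0.0258 and 0.376 FPKM with a log2 ratio of 1.92 [1.12, 2.29]. Liver RNA does not measure cytokines that arrive in plasma.

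Of 12 receptors and adaptors of these cytokines 4 had an interval above 0 and 3 below, near the 22.4% and 17.5% of all tested genes, 0 were past 2-fold, and the median log2 ratio was 0.14. Il6ra, the interleukin-6 receptor, was at 8.25 and 6.36 FPKM (−0.37 [−0.58, −0.17]) and Il6st, the signaling chain gp130, at 15.9 and 17.6 FPKM (0.15 [0.07, 0.23]). Lifr was at −0.77, Il1rap, the second chain of the interleukin-1 receptor, at −0.57 and Osmr, the oncostatin M receptor, at 0.51.

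Of 12 listed regulators of the Saa and Orm genes 5 had an interval above 0 and 2 below, beside 22.4% and 17.5% of all tested genes, 0 were past 2-fold and the median log2 ratio was 0.07. Cebpd, a C/EBP gene tied to the acute phase, was at 11.1 and 17.9 FPKM (0.68 [0.44, 0.92]) and Stat3 at 11.3 and 17.6 FPKM (0.64 [0.53, 0.74]). Cebpb, another C/EBP gene, was more abundant at 78.5 and 75.7 FPKM, and its interval held 0 (−0.05 [−0.14, 0.04]). Rela, a subunit of NF-kB, was at 0.38 and Nr3c1, the glucocorticoid receptor, at −0.28 [−0.41, −0.15]. The most abundant, the hepatocyte factors Cebpa and Hnf4a, were at −0.06 and 0.04. Of 8 feedback genes of the same pathways 4 were above 0 and 2 below by interval, with a median of 0.32. Tnfaip3 and Nfkbiz, which restrain or modify NF-kB, were at 0.72 and 0.61, Socs3, the inhibitor of STAT3 signaling, at 0.37 [0.01, 0.73] and Nfkbia at −0.24.

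Of 9 receptors reported to bind serum amyloid A, Fpr1, a formyl peptide receptor of neutrophils and monocytes, was at 0.510 and 1.19 FPKM (1.09 [0.17, 2.0]), and 3 had an interval above 0 and 0 below, beside the same 22.4% and 17.5%. The most abundant, the scavenger receptors Cd36 and Scarb1, were at 0.23 and 0.36. Of 8 listed proteases that cleave serum amyloid A, 6 were tested. Of these 5 had an interval above 0 and 0 below, beside 22.4% and 17.5% of all tested genes. Elane and Mmp9, which are among the 5, reached the mean of 0.1 FPKM only through S1a/ETP, so the filter fixed their direction. Elane, neutrophil elastase, was listed at 0 in S1a/Ctrl and was at 5.08 FPKM in S1a/ETP, Mmp9 was at 0.0982 and 1.04 FPKM, and the lysosomal cathepsins Ctsb and Ctsd were at 0.25 and 0.42. Fpr1, Elane and Mmp9 are genes of neutrophils, whose 12 markers differed between the libraries as given above, and their part in these values was not tested.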

How the data were processed

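The RNA was extracted with Trizol and a column kit, sequenced by Novogene and deposited by the authors as 1 table of FPKM values with gene IDs, symbols, coordinates and lengths. Among other tools, the submitters' processing notes list mm10, edgeR 3.16.5, StringTie 1.3.3b, HTSeq 0.6.1 and STAR, without their roles. Of 34490 gene IDs shared with GENCODE vM21 (GRCm38), 34434 overlapped its positions. The depth of each library was inferred as the value at which FPKM times length and depth gives whole reads. At that depth 100% of values were whole, within 0.01 reads, and all reads given here come from this step. Genes whose mean reached 0.1 FPKM were compared. Intervals are 95% exact binomial (Clopper-Pearson) intervals of the reads for genes and Poisson intervals for levels. Family sums and the comparisons with Apoa1 have a normal approximation on the log scale. Pairs of members have exact intervals of the odds ratio. All cover counting error only. The study's p threshold was not used, since 1 library per group gives no spread. Steps were tested on simulated data. The members and the 23 gene lists (194 genes, 1 found by an older symbol) were chosen with earlier results of these data known. Named from a list were up to 4 genes with the largest ratios and the 2 most abundant, and a few others named for their role were chosen after their values were seen. Other pseudocounts, filters, thresholds, scalings and family sums were tried. The study's qPCR, protein and serum measurements were not analysed here. Python 3.11.15, numpy 2.4.6, pandas 2.3.3, scipy 1.17.1 and Biopython 1.88 were used.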

Additional observations from a re-analysis of the deposited data

How the results depend on the processing

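The log2 ratio of each of the 7 members kept its sign under the other pseudocounts (1 and 0.01 FPKM) and scalings, although the intervals of Saa3 and Orm3 hold 0, with ranges of 1.93 to 2.03 for Saa1, 2.07 to 2.17 for Saa2, 0.24 to 0.34 for Saa3, −0.49 to −0.39 for Saa4, 0.65 to 0.75 for Orm1, 2.19 to 2.29 for Orm2 and −0.19 to −0.09 for Orm3. Rescaling to a median log2 ratio of 0, to TPM or by a total that omits the 100 most abundant genes shifted all log2 ratios by −0.03, 0.07 and 0.03. The orosomucoid log2 ratio of 0.86 was then 0.83, 0.93 and 0.89, and with TPM the serum amyloid A ratio was 1.79 and that of its inducible copies 2.06. As a sum of reads, in which the longer Saa4 weighs more, the serum amyloid A ratio was 1.3. As a sum of FPKM the serum amyloid A ratio was 1.72 with Saa1 and 1.49 without it. The orosomucoid ratio without Orm1 was 2.02, so its value rests on that copy. The count of 3 members past 2-fold was 2 at a 4-fold threshold, which Saa1 missed at 3.89-fold. In TPM the log2 ratio of Saa1 was 2.03, just past 4-fold. The share of all genes past 4-fold is not given here, so the count of 2 has no background beside it. Over all genes, 1030 higher and 1003 lower calls at 2-fold, of 16042 tested genes, became 128 and 169 at 1 FPKM added. In TPM they were 1631 and 1421, but there 17220 genes were tested, so these counts are not of the same set. When a mean of 1 FPKM was required they were 241 and 203 of 11006. No paired analysis was possible because each group has 1 library, and no library could be left out.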

Other observations

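The primers that the study lists for its qPCR of Saa1, Saa2 and Orm2 were compared with the transcripts of all 7 members, because the copies are so alike. Each is given 5′ to 3′, with capitals where its closest placement on the near copy (Saa2 for Saa1, Saa1 for Saa2, Orm1 for Orm2) has another base.
Saa1 forward: catttGttCACgaggctttccaaggg
Saa1 reverse: ttcctgaaagGCctctcttCcatcac
Saa2 forward: agctGGctggaaaGaTGGagacaa
Saa2 reverse: tgtcctctgccgaagaattcctga
Orm2 forward: gggaccCtctccaagtatgT
Orm2 reverse: ccgtttcttctcatccttCa
Each primer matched its own transcript with 0 mismatches. The Saa1 primers had 4 and 3 mismatches to Saa2, and the Saa2 forward primer had 6 to Saa1, while the Saa2 reverse primer matched Saa1 exactly. The Orm2 forward primer had 2 mismatches to Orm1 and 2 to Orm3. The Orm2 reverse primer matched Orm3 exactly and had 1 mismatch to Orm1. The qPCR values themselves were not analysed here.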
